A study of Mus musculus with 8 samples.

Results

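Genes of homologous recombination, the Fanconi anaemia pathway and the DNA damage checkpoint were followed in haematopoietic stem cells (HSCs) that were purified from bone marrow of old and young mice. The set was chosen by name, as 41 gene symbols of these pathways, with earlier results of these data known. The further gene lists and marker lists below were chosen likewise, so shares set beside those of all genes are descriptions. All 41 were among the 19909 genes of the deposited bulk RNA sequencing tables. All animals had the genotype Gfplc3/Gfplc3, a reporter that fuses GFP to LC3, which sits on autophagosomes and is destroyed with their cargo, so that GFP dims with autophagic flux, and all HSCs were isolated at steady state. AThi libraries (n = 3) held the 33% of HSCs of old mice, over 24 months of age, that were dimmest in GFP. ATlo libraries (n = 3) held the 33% that were brightest in GFP, paired with the AThi libraries. Young libraries (n = 2) held unfractionated HSCs of mice aged 8 to 12 weeks. The question was how HSCs of old mice that engage autophagy differ from those that do not. The gate was set on the brightness of the reporter, and the young HSCs were not split by it, so age and gate cannot be told apart where an old fraction is set against young. Libraries carry the tags O10, O11 and O12 in each old group and D11 and D12 in the young group, and values below are given in that order.

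Homologous recombination mends a broken chromosome or a collapsed replication fork by copying the sister chromatid, and so works in cells that have begun or finished copying their DNA. Nucleases trim the broken ends to single strands, the BRCA proteins prepare these strands for pairing, and the strands then invade the intact sister. The Fanconi pathway releases crosslinked DNA strands: a core complex attaches ubiquitin to the FANCD2 and FANCI pair, which then calls in nucleases and recombination. ATM and ATR sense damage and stalled forks and act through the kinases CHK2 and CHK1 to hold the cell cycle. In people, inherited loss of a Fanconi gene leads to bone marrow failure.

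The libraries held between 33960216 and 61341946 recovered reads, and the 3 ATlo libraries were the deepest. All 12 HSC markers examined were present in every library, and their summed normalized counts were 142260 to 165923 in AThi, 109790 to 131089 in ATlo and 141915 to 146481 in young. AThi and ATlo did not overlap in that sum, and 3 of the 12 were called higher and 0 lower in AThi against ATlo in the authors' deposited table (edgeR 2 and 0). Over all genes tested, 3.47% were called higher and 4.43% lower there (edgeR 0.301% and 1.11%). The sums of T and NK cell markers (1895 to 3124 in AThi, 1369 to 1479 in ATlo) and of megakaryocyte and platelet markers (22924 to 25131 in AThi, 17600 to 21559 in ATlo) also did not overlap, with 1 gene of each list called higher in AThi. Only 3 of the 9 T and NK markers listed were present. Klrb1c was higher in AThi (1284 to 2730, against 721 to 950 in ATlo) and Nkg7 lower (243 to 392, against 394 to 533). Of the 8 megakaryocyte and platelet markers, Itgb3 was higher (11361 to 13615, against 7023 to 9103). Itga2b (1417 to 1594, against 2125 to 2735), Gp5 and Pf4 were lower, and the list had a median log2 fold change of -0.43. No pair of libraries of the same group agreed within sampling noise. The libraries tagged O12 and D12 stood apart in every group: 5 B cell markers summed to 23877 normalized counts in AThi O12, 10117 in ATlo O12 and 10767 in young D12, against 654 to 992 in the other 5 libraries. In those 5 libraries Cd79a, a defining B cell gene, was at 15.7 normalized counts or less. Xist set young D11 apart instead, at 97743 normalized counts, against 5810 in AThi O12, 2747 in ATlo O12 and 3869 in young D12. In the old libraries tagged O10 or O11 it was at 32.5 to 171. The young libraries thus differed in Xist from each other and from these old libraries, and its part in the comparisons with young was not tested. Erythroid marker sums were also highest in the O12 or D12 library of each group, at 1990 in AThi, 4089 in ATlo and 5012 in young. In the other libraries they were 407 to 1780. Counts of calls that rest on these libraries are given with and without them, and the part of these libraries and of the marker lists in the results was not tested.

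Most of the 41 genes were lower in AThi HSCs than in the paired ATlo HSCs. In the authors' deposited table (DESeq2 Wald test, Benjamini-Hochberg adjusted p below 0.05), 19 of 41 fell in AThi and 1, Rad51d, rose. Among all 17908 genes with an adjusted p, 4.43% were called lower and 3.47% higher, so 46.3% of these genes stood against a background of 4.43%. The median log2 fold change of the 41 was -0.69, beside 0.02 over all genes tested, and 35 of 41 values were negative. The decreases spanned the BRCA genes, end resection, helicases, the FANCD2 and FANCI pair and the checkpoint kinases CHK1 and CHK2. In bulk RNA, fewer cells that express a gene and less of its RNA per cell cannot be told apart.

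A stricter test called fewer of them. The quasi-likelihood test of edgeR on the recovered reads called 9 of 41 lower and 0 higher at an adjusted p below 0.05, against a background of 1.11% lower and 0.301% higher over all genes. At an unadjusted p below 0.05, edgeR had 23 lower and 1 higher, over backgrounds of 7.56% and 7.86%. The 9 were Brca1, Bard1, Brca2, Exo1, Aunip, Brip1, Chek1, Msh6 and Hells. These kept their call in each of the 21 alternative fits and sets of libraries tried. Among the 21 are edgeR itself and a DESeq2 refit that repeats the deposited calls, so they are not 21 separate checks. With the pair as a replicate block in the 6 old libraries, DESeq2 called 21 of 41 lower and 0 higher, over backgrounds of 5.26% and 5.13%, and edgeR 9 lower and 0 higher, over backgrounds of 1.12% and 0.402%. Without the 3 libraries tagged O12 or D12, DESeq2 called 11 of 41 lower and 0 higher, over backgrounds of 2.65% and 1.86%, and 10 of these were among the 19. Those that lost their call there were Rad54l, Rad51ap1, Blm, Eme1, Fancd2, Fanci, Chek2, Parp1 and Polq, and the 1 gained was Palb2.

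**Figure D1:**
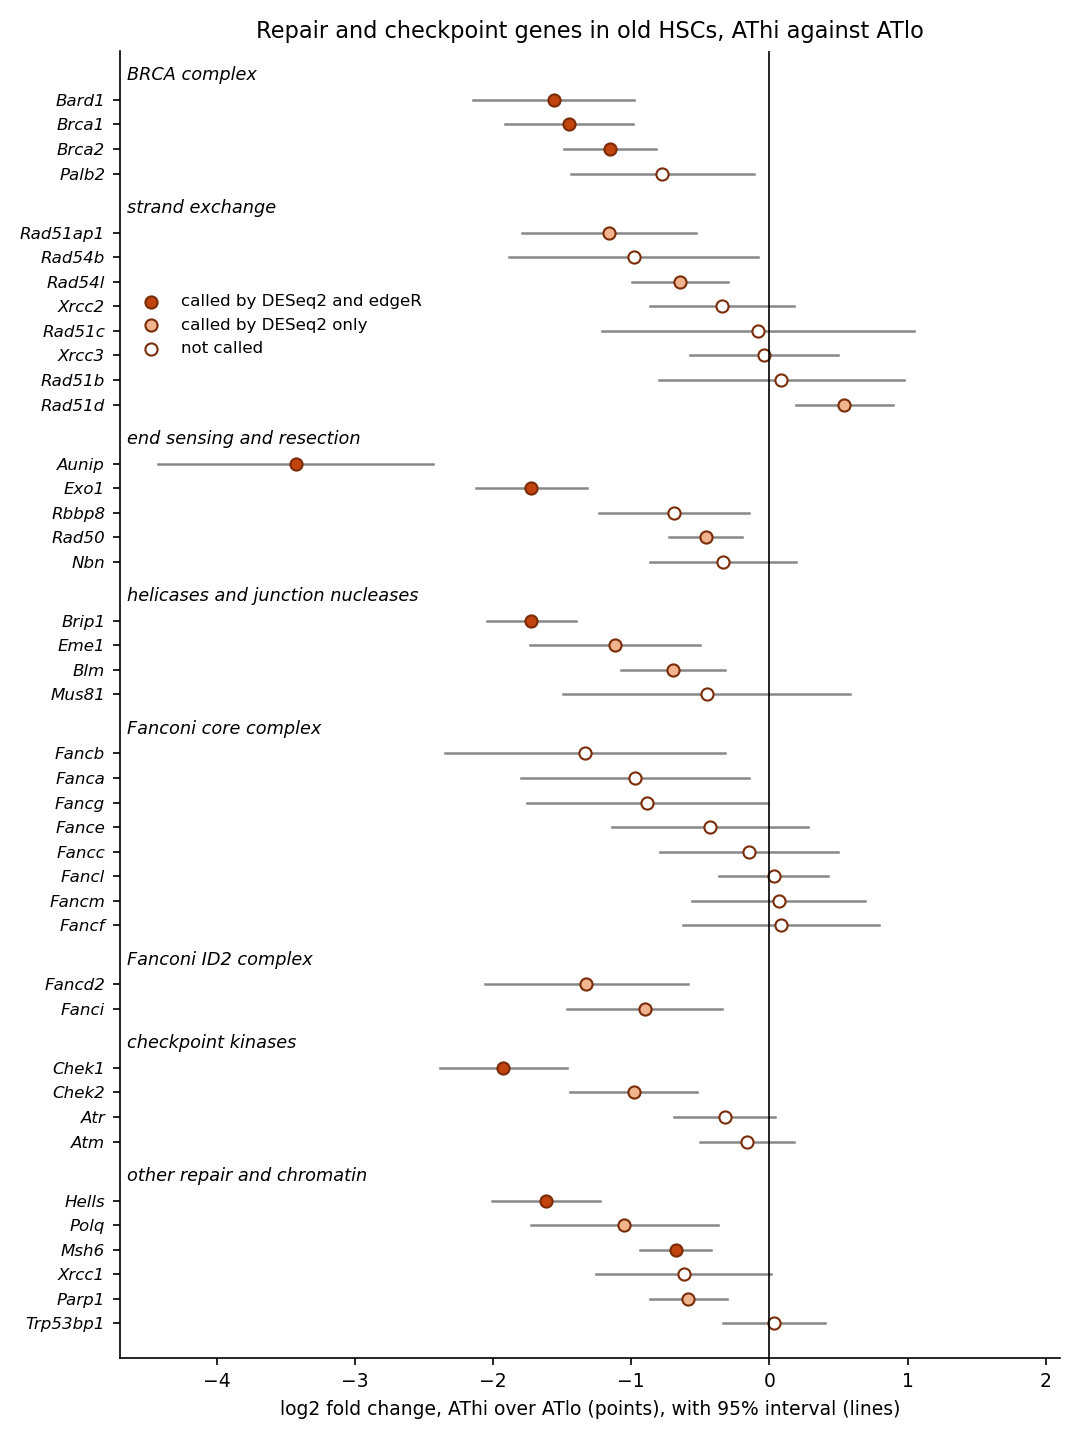
Log2 fold change of each gene in AThi over ATlo in the authors' deposited table (points), with its 95% interval (lines), grouped by role. Dark points were called by DESeq2 and edgeR, pale points by DESeq2 only and open points by neither, and of the 20 filled points only Rad51d lies right of 0.

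Taken pair by pair, 29 of the 41 genes were lower in AThi than in the ATlo library with the same tag in all 3 pairs, against 20.2% of all genes tested, and 1 was higher in all 3, against 21.7%. In 23 of the 41 every AThi library lay below every ATlo library, against 11.6% of all genes, and in 1 every AThi library lay above, against 10.7%. The young mean lay between the old fractions, above AThi and below ATlo, for 24 genes, which is 58.5% of the set and 18.2% of all genes tested.

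**Figure D2:**
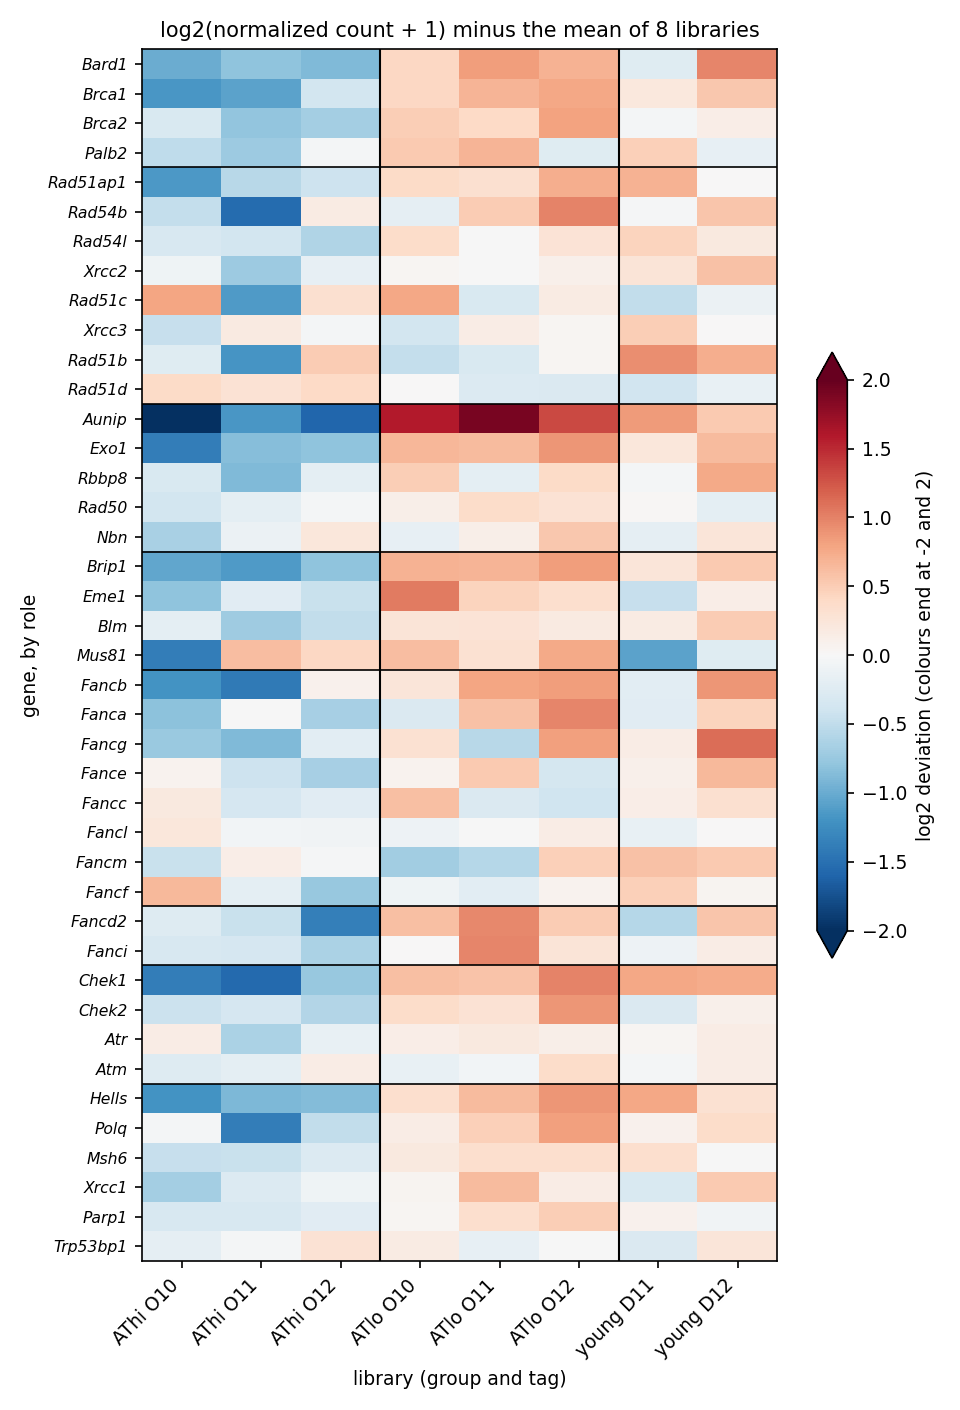
Log2(normalized count + 1) of each gene in each of the 8 libraries as a deviation from the gene's mean, blue below and red above, with AThi libraries on the left, ATlo in the middle and young on the right. Most rows are blue in the 3 AThi columns and red in the 3 ATlo columns, while rows such as Rad51c, Xrcc3 and Fancl do not divide by group.

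Genes that fell in AThi were also looked at for their promoters, since they moved together. RefSeq promoter windows on GRCm38.p6, from 250 bases before to 50 bases after the start of transcription, were at hand for 33 of the 41 genes. Some genes, such as Rad51c, have several windows, and a gene was counted if any of its windows held the letters. The shares below are therefore not for equal lengths of sequence. Windows were searched on both strands for the E2F site of S phase genes (written as TTTCCCGC, TTTGGCGC, TTTCGCGC or TTTGCCGC), the cell cycle homology region (TTTGAA) and the CCAAT box (CCAAT), none of which contains another. E2F letters stood in 7 of 33 genes (21.2%), against 4.67% of the 10916 tested genes with a window and 14.5% of the 608 genes called lower. They stood in 5 of the 16 genes of the set that were called lower and have a window, namely Bard1, Brca2, Chek2, Hells and Msh6, and in 2 of the 17 others, Fancg and Rad51c. TTTGAA stood in 4 of 33 genes (12.1%), against 15.3% of tested genes and 25.0% of all genes called lower. It stood in 3 of the 16 called lower and in 1 of the 17 others. CCAAT stood in 18 of 33 (54.5%), against 43.1% of tested genes and 55.9% of all genes called lower. It stood in 7 of the 16 called lower (43.8%) and in 11 of the 17 others (64.7%). Shown here are the windows of the 3 genes with the lowest adjusted p that hold E2F letters, and of Xrcc3, the gene with the highest adjusted p, which holds none. Each runs 5′ to 3′ along the gene, with E2F letters in capitals, and in Brca2 the capitals are the site read on the other strand.
Hells (chr19:38930740-38931039, plus strand): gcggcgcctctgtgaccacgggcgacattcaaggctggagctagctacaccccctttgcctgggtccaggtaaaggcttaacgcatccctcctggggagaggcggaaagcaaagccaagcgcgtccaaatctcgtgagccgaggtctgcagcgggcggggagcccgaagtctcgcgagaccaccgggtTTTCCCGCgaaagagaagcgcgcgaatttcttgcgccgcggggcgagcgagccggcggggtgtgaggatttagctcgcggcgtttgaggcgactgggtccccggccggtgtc
Brca2 (chr5:150522371-150522670, plus strand): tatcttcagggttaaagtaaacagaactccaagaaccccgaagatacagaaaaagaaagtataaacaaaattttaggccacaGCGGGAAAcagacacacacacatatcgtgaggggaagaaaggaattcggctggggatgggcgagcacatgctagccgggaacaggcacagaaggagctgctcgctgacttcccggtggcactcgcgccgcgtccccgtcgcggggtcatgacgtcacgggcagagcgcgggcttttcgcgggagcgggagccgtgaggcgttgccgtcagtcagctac
Bard1 (chr1:71102923-71103222, minus strand): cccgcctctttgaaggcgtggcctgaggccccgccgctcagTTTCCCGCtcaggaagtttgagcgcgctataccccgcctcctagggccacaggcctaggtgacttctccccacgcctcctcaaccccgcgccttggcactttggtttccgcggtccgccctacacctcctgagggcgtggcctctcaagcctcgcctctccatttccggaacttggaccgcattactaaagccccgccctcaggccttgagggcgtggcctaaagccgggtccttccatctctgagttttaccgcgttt
Xrcc3 (chr12:111813830-111814129, minus strand): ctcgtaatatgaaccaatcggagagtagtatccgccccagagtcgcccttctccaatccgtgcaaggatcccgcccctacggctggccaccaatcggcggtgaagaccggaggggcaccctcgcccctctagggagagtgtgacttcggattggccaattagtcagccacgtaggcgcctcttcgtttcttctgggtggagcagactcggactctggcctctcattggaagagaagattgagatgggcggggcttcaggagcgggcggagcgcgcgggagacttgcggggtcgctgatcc
The E2F letters begin at base 189 of the Hells window, base 83 of the Brca2 window and base 42 of the Bard1 window. A match of letters is a description of the sequence and not evidence of binding.

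The BRCA genes, which act on resected single-stranded DNA, had a median log2 fold change of -1.30, and 3 of 4 fell in AThi. Brca1, whose product forms a ubiquitin ligase with BARD1 and opens the way to recombination, lies on chromosome 11 (101488764 to 101551955, GRCm38). It had 644, 686 and 1113 normalized counts in AThi, against 1916, 2298 and 2457 in ATlo and 1666 and 2089 in young. The AThi values lay below all others, and AThi O12 was the highest of the 3. The log2 fold change over ATlo was -1.45 (SE 0.24, 95% interval -1.91 to -0.99, adjusted p = 1.23e-07, the authors' deposited table), and edgeR gave an adjusted p of 0.0211. Bard1, the partner of BRCA1, had 397, 449 and 425 normalized counts in AThi, against 1055, 1408 and 1282 in ATlo and 664 and 1548 in young. The AThi values lay below all others, and the young libraries differed from each other by more than those of either old fraction did. Its log2 fold change over ATlo was -1.56 (SE 0.30, adjusted p = 1.36e-05, the authors' deposited table), with an edgeR adjusted p of 0.0408.

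Brca2, which binds single-stranded DNA at breaks (chromosome 5, 150522630 to 150570329), had 3567, 2565 and 2749 normalized counts in AThi, against 6199, 5849 and 7699 in ATlo and 4330 and 4856 in young. The 3 groups did not overlap, and young lay between the old fractions. The log2 fold change over ATlo was -1.15 (SE 0.17, adjusted p = 2.00e-09, the authors' deposited table), with an edgeR adjusted p of 0.0123. Palb2, which joins BRCA1 to BRCA2, did not pass the test (log2 fold change -0.77, SE 0.34, adjusted p = 0.156, the authors' deposited table). Its values overlapped, at 271 to 437 normalized counts in AThi, 382 to 722 in ATlo and 399 to 628 in young. Without AThi O12 and ATlo O12 together, Palb2 was called lower, with an adjusted p of 0.0174 by DESeq2.

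Genes of strand exchange were mixed, with 2 of 8 lower, 1 higher and a median log2 fold change of -0.22. Rad54l, a motor protein that drives strand invasion, had 1095, 1064 and 906 normalized counts in AThi, against 1769, 1368 and 1656 in ATlo and 1872 and 1576 in young. All AThi values lay below all others (log2 fold change over ATlo -0.65, SE 0.18, adjusted p = 0.00642, the authors' deposited table, edgeR adjusted p = 0.100). Rad51ap1, which stimulates the formation of joint molecules, had 157, 237 and 263 normalized counts in AThi, against 456, 436 and 577 in ATlo and 567 and 351 in young. Again the old groups did not overlap (log2 fold change -1.16, SE 0.32, adjusted p = 0.00751, the authors' deposited table, edgeR adjusted p = 0.108). The DESeq2 call of Rad54l was lost without AThi O12 (adjusted p = 0.0503), ATlo O10 (0.0664) or ATlo O12 (0.0611), and that of Rad51ap1 without AThi O10 (0.0593) or ATlo O12 (0.0923).

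Rad51d, which binds Xrcc2 in a complex of homologous recombination (chromosome 11, 82876434 to 82890614), went the other way. It had 1165, 1091 and 1178 normalized counts in AThi, against 895, 738 and 727 in ATlo and 681 and 798 in young. Every AThi library lay above every other library, and the ATlo and young ranges overlapped. AThi libraries averaged 1145 ± 46.9 (SD, n = 3), against 786 ± 94.1 for ATlo libraries (SD, n = 3). The log2 fold change over ATlo was 0.54 (SE 0.18, adjusted p = 0.0344, the authors' deposited table). The call did not hold in edgeR (adjusted p = 0.156), with the pair as a replicate block in DESeq2 (0.0788), or in 7 of the 8 fits that left out 1 library, where the adjusted p reached 0.198.

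Rad51b, Rad51c, Xrcc2 and Xrcc3 did not pass the test. Rad51c, which works in a complex with Xrcc3 and in another with Rad51d, had 193, 50.6 and 140 normalized counts in AThi, against 191, 90.5 and 125 in ATlo and 79.0 and 103.5 in young. Its values followed the tag more than the gate, with O10 high and O11 low in both old fractions. Xrcc3, the partner of RAD51C, had 420, 654 and 559 normalized counts in AThi, against 445, 641 and 592 in ATlo and 812 and 583 in young. Each AThi value lay close to that of the ATlo library with the same tag. In the authors' deposited table the log2 fold change of Xrcc3 was -0.04 (95% interval -0.57 to 0.49) and that of Rad51c -0.09 (95% interval -1.21 to 1.04). For Rad51c the interval is wide, so that large differences in either direction lie inside it. Rad51b (87.0 to 281 normalized counts in AThi, 142 to 204 in ATlo, 329 to 380 in young) and Xrcc2 (249 to 388 in AThi, 410 to 442 in ATlo and 494 to 620 in young), both in the complex with Rad51d, had adjusted p-values of 0.959 and 0.528 in the authors' deposited table. Rad54b, a relative of Rad54l, also did not pass, at 108 to 352 normalized counts in AThi, 277 to 630.5 in ATlo and 310 to 461.5 in young, whose exons overlap Fsbp on the same strand, so their reads cannot be told apart here. Rad54b was called lower without AThi O12 (adjusted p = 0.0363 by DESeq2).

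Of the genes that sense and trim broken ends, 3 of 5 fell. Exo1, the nuclease of long-range resection (chromosome 1, 175880581 to 175913489), had 559, 810 and 839 normalized counts in AThi, against 2318, 2275 and 2710 in ATlo and 1716 and 2273 in young. Every AThi value was below every other value, with a wide gap. The log2 fold change over ATlo was -1.72 (SE 0.21, adjusted p = 4.21e-14, the authors' deposited table), with an edgeR adjusted p of 0.00744. Aunip, which in human cells helps bring resection factors to broken ends (chromosome 4, 134510999 to 134523927), had the largest decrease of the set. It had 10.2, 54.0 and 39.8 normalized counts in AThi, against 369, 457 and 306 in ATlo and 220 and 176 in young. AThi O10 held 7 reads of this gene, so the fold is imprecise, but the groups lay far apart. The AThi mean was 10.9-fold below that of ATlo (log2 fold change -3.43, 95% interval -4.42 to -2.43, adjusted p = 3.38e-09, the authors' deposited table, edgeR adjusted p = 0.0221).

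Rad50, the backbone of the complex that first binds a break, was 1 of the 3 most abundant genes per kilobase of exon in every group. It had 6019, 6776 and 7602 normalized counts in AThi, against 8446, 10098 and 9556 in ATlo and 7954 and 6802 in young. AThi lay below ATlo throughout but overlapped young (log2 fold change over ATlo -0.46, SE 0.14, adjusted p = 0.0136, the authors' deposited table, edgeR adjusted p = 0.117). The DESeq2 call was lost without AThi O10 (adjusted p = 0.107), AThi O11 (0.0569), ATlo O11 (0.121) or ATlo O12 (0.0779). Nbn, a partner of RAD50 in the same complex, did not pass, at 817 to 1504 normalized counts in AThi, 1146 to 1876 in ATlo and 1138 to 1526 in young. Rbbp8, which encodes the resection factor CtIP, had 794 to 1282 normalized counts in AThi, 1282 to 2076 in ATlo and 1432 to 2480 in young (adjusted p = 0.107, the authors' deposited table). With the pair as a replicate block in DESeq2, Rbbp8 was called lower (adjusted p = 0.00257), as it was without ATlo O11 (0.0453).

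**Figure D3:**
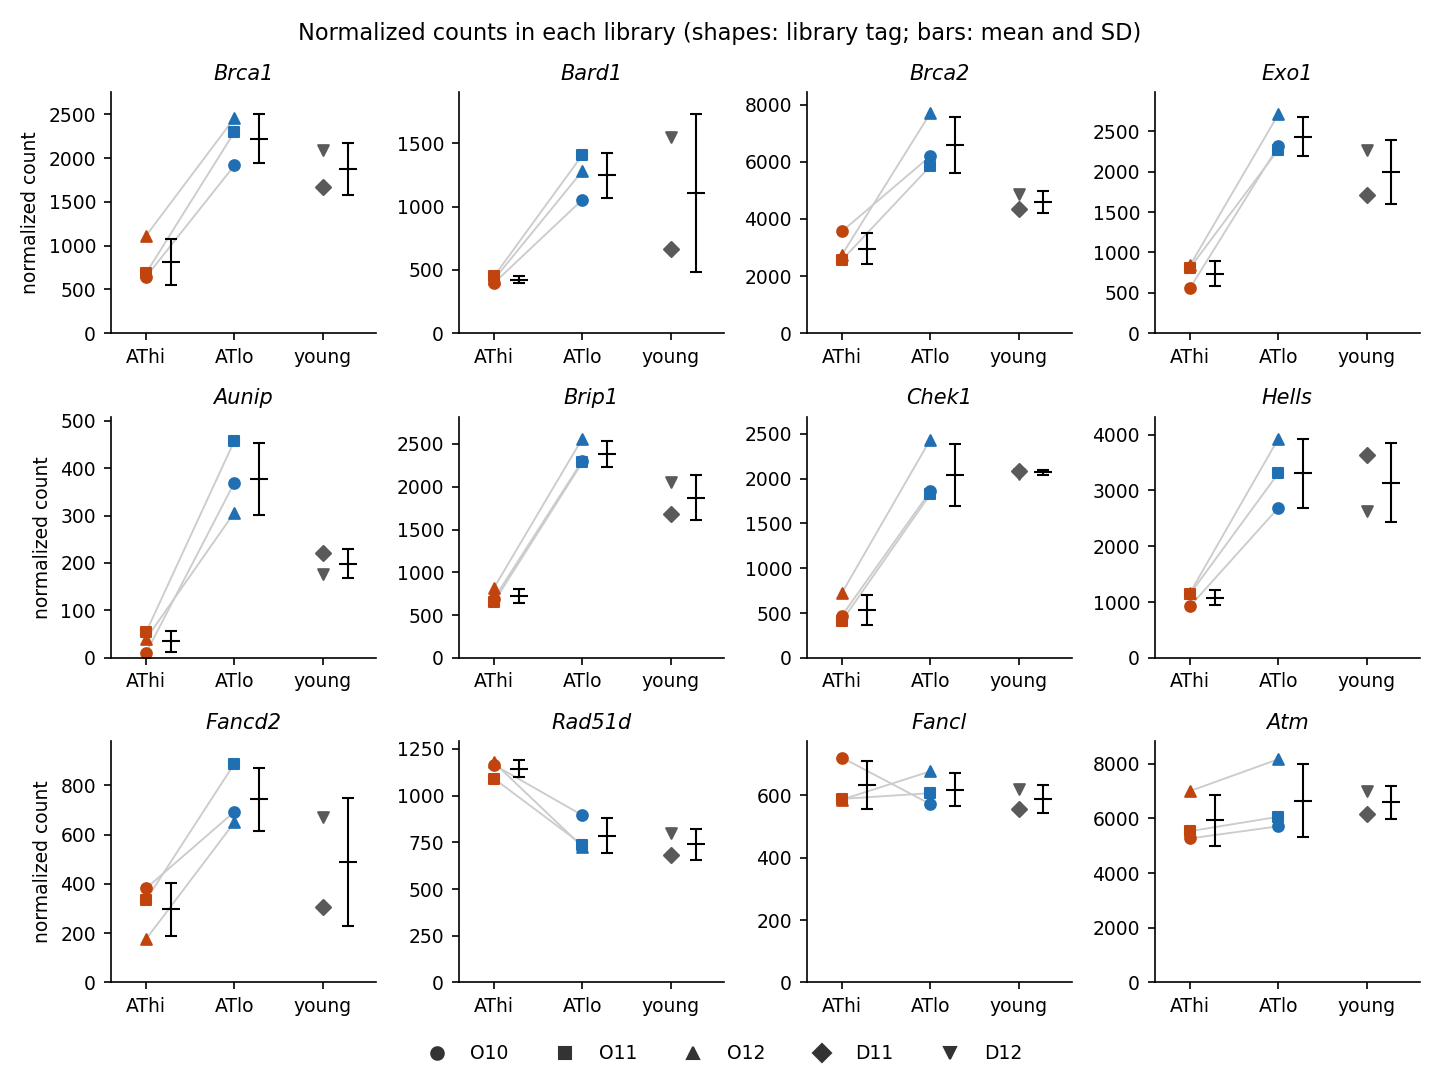
Normalized counts of 12 genes in each library, with AThi on the left, ATlo in the middle and young on the right of each panel. Shapes give the library tag, grey lines join the old libraries of the same tag, and bars give mean and SD (n = 3, 3 and 2). AThi lies below ATlo in the panels of Brca1, Bard1, Brca2, Exo1, Aunip, Brip1, Chek1, Hells and Fancd2, above it in that of Rad51d, and overlaps it in those of Fancl and Atm.

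Helicases and junction nucleases, which unwind or cut the intermediates of recombination, had 3 of 4 genes lower. Brip1, the helicase that binds BRCA1 and is also a Fanconi gene (chromosome 11, 86058138 to 86201193), had 692, 654 and 818 normalized counts in AThi, against 2304, 2286 and 2564 in ATlo and 1685 and 2058 in young. Its libraries were close to each other within each old group, and the AThi mean of 722 ± 85.8 was 3.30-fold below the ATlo mean of 2384 ± 156 (SD, n = 3 each). It had the lowest adjusted p of the 41 (log2 fold change -1.72, SE 0.16, adjusted p = 3.72e-22, the authors' deposited table, edgeR adjusted p = 0.00392). Blm, the helicase lost in Bloom syndrome, had 1051, 736 and 852 normalized counts in AThi, against 1447, 1456 and 1366 in ATlo and 1355 and 1717 in young. All AThi values lay below the rest, with a log2 fold change over ATlo of -0.70 (SE 0.19, adjusted p = 0.00702, the authors' deposited table, edgeR adjusted p = 0.100). Without AThi O11 (adjusted p = 0.0619) or ATlo O11 (0.0576) this DESeq2 call was lost.

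Eme1, which with MUS81 cuts joined chromatids, had 230, 341 and 295 normalized counts in AThi, against 823, 549 and 508 in ATlo and 290 and 438 in young. The old fractions did not overlap and ATlo O10 was the highest (log2 fold change -1.12, SE 0.31, adjusted p = 0.00872, the authors' deposited table, edgeR adjusted p = 0.113). The DESeq2 call was lost without AThi O10 (adjusted p = 0.0699) or ATlo O10 (0.102). Exons of Eme1 overlap Lrrc59 and Mrpl27 on the other strand, and with the strand setting of the counting not given their reads cannot be told apart. Its partner Mus81 ranged widely, at 61.5 to 251 normalized counts in AThi, 202 to 275 in ATlo and 76.9 to 137 in young, and did not pass (adjusted p = 0.728, the authors' deposited table).

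Of the 8 Fanconi core complex genes 0 were called by DESeq2 and 0 by edgeR, which over so few genes is not told from the backgrounds of 4.43% and 1.11% lower. At an unadjusted p below 0.05, 3 of them were lower by DESeq2 and 2 by edgeR, over backgrounds of 9.43% and 7.56%. Their median log2 fold change was -0.29, and whether they differed from the other classes was not tested. Fancb, an X-linked subunit of the catalytic module (X chromosome, 164980592 to 164997272), had 68.8, 59.5 and 168 normalized counts in AThi, against 189, 275 and 286 in ATlo and 137 and 295 in young. All AThi values lay below all ATlo values, but AThi O12 stood above the other AThi libraries (log2 fold change -1.33, SE 0.52, adjusted p = 0.0920, the authors' deposited table). Fancb was called lower with the pair as a replicate block in DESeq2 (adjusted p = 0.0392) and without AThi O12 (0.00302), and not with the block in edgeR (0.163).

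Fanca, a scaffold subunit, had 146, 257 and 163 normalized counts in AThi, against 212, 391 and 509 in ATlo and 220 and 353 in young, and Fancg, its binding partner, had 141, 128 and 202 in AThi, against 291, 160 and 417 in ATlo and 260 and 509 in young. For both genes AThi and ATlo overlapped, although each AThi library was below the ATlo library with the same tag (adjusted p = 0.148 for Fanca and 0.249 for Fancg in the authors' deposited table). Without ATlo O10, Fanca was called lower (adjusted p = 0.0390 by DESeq2). Fancl, the ubiquitin ligase of the complex, varied little, at 720, 588 and 586 normalized counts in AThi, against 571, 607 and 676 in ATlo and 555 and 619 in young. Its log2 fold change over ATlo was 0.03, with a 95% interval of -0.37 to 0.43 in the authors' deposited table.

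The 4 remaining core complex genes did not pass and overlapped between the old fractions. Fancc, a core subunit, had 374 to 546 normalized counts in AThi, 359 to 723 in ATlo and 519 to 596 in young. Fance, which contacts FANCD2, had 178 to 296 in AThi, 221 to 403 in ATlo and 301 to 441 in young. Fancf, an adaptor, had 252 to 665 in AThi, 366 to 445 in ATlo and 439 to 594 in young. Fancm, the DNA translocase that anchors the complex to chromatin, had 619 to 928 in AThi, 520 to 1179 in ATlo and 1212 to 1261 in young. Both young libraries of Fancm lay above every old library.

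Both genes of the FANCD2 and FANCI pair, the substrate of the core complex, were called lower by DESeq2 and neither by edgeR. Fancd2 had 382, 335 and 176 normalized counts in AThi, against 693, 888.4 and 650 in ATlo and 305 and 672 in young. AThi lay below ATlo in every library, and young D11 lay inside the AThi range while young D12 lay above it (log2 fold change over ATlo -1.32, SE 0.38, adjusted p = 0.00991, the authors' deposited table, edgeR adjusted p = 0.132). The DESeq2 call of Fancd2 was lost without AThi O12 (adjusted p = 0.0514) or ATlo O11 (0.0925). Fanci had 525, 520 and 421 normalized counts in AThi, against 658, 1296 and 784 in ATlo and 611 and 725 in young. ATlo O11 was the highest library, and the fold change rested in part on it (log2 fold change -0.90, SE 0.29, adjusted p = 0.0262, the authors' deposited table, edgeR adjusted p = 0.154). Without ATlo O11 the log2 fold change of Fanci was -0.56 with an adjusted p of 0.224, and the call was also lost without AThi O10 (0.0610), AThi O11 (0.0657) or AThi O12 (0.110). Fancd2 shares exon sequence with Fancd2os, and Fanci with Polg, on the opposite strand. The same limit holds for other genes of the set. Among them are Msh6 (Fbxo11), Rad54l (Lrrc41), Fancl (Vrk2), Xrcc3 (Klc1), Trp53bp1 (Tubgcp4), Fanca (Zfp276) and Mus81 (Efemp2).

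Of the checkpoint kinases, the apical kinases passed neither DESeq2 nor edgeR. The effector kinases both passed DESeq2, and only Chek1 passed edgeR. Chek1, the kinase that ATR activates at stalled forks (chromosome 9, 36708482 to 36727065), had 471, 414 and 726 normalized counts in AThi, against 1861, 1828 and 2437 in ATlo and 2089 and 2052 in young. ATlo and young overlapped, and every AThi library lay far below both. The log2 fold change over ATlo was -1.93 (SE 0.23, adjusted p = 1.60e-13, the authors' deposited table), with an edgeR adjusted p of 0.00744. Chek2, the effector of ATM, had 545, 579 and 488 normalized counts in AThi, against 948, 892 and 1344 in ATlo and 603 and 786 in young. AThi values lay below all others (log2 fold change over ATlo -0.98, SE 0.24, adjusted p = 0.00123, the authors' deposited table, edgeR adjusted p = 0.0709). Without AThi O12 and ATlo O12 together the adjusted p of Chek2 was 0.122 by DESeq2.

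Atr, the sensor of stalled forks, had 4110, 2404 and 3362 normalized counts in AThi, against 4070, 4277 and 4020 in ATlo and 3842 and 4102 in young. Only AThi O11 and O12 lay below the rest (log2 fold change -0.32, 95% interval -0.69 to 0.04, adjusted p = 0.337, the authors' deposited table). Atm, the sensor of double-strand breaks, had 5269 to 7001 normalized counts in AThi, 5711 to 8168 in ATlo and 6165 to 7003 in young. Its log2 fold change over ATlo was -0.16, with a 95% interval of -0.50 to 0.18 in the authors' deposited table. Whether the difference of Chek1 or Chek2 exceeded that of its upstream kinase was not tested.

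Of the 6 other repair and chromatin genes, 4 fell in AThi. Hells, a chromatin remodeller that supports DNA methylation and repair (chromosome 19, 38930915 to 38971051), had 925, 1144 and 1163 normalized counts in AThi, against 2688, 3310 and 3928 in ATlo and 3643 and 2637 in young. AThi was far below both other groups, which overlapped (log2 fold change over ATlo -1.62, SE 0.20, adjusted p = 2.24e-13, the authors' deposited table, edgeR adjusted p = 0.00744). Msh6, a mismatch recognition protein, had 4412, 4457 and 4987 normalized counts in AThi, against 6935, 7646 and 7605 in ATlo and 7626 and 5991 in young. AThi lay below both other groups and its spread was small (log2 fold change over ATlo -0.68, SE 0.13, adjusted p = 1.76e-05, the authors' deposited table, edgeR adjusted p = 0.0323).

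Parp1, the sensor of single-strand breaks, had 4195, 4215 and 4478 normalized counts in AThi, against 5396, 6589 and 7359 in ATlo and 5564 and 4995 in young. AThi lay below every other library (log2 fold change over ATlo -0.59, SE 0.14, adjusted p = 0.00125, the authors' deposited table, edgeR adjusted p = 0.0679). Polq, the polymerase of an error-prone end joining route, had 208 to 531 normalized counts in AThi, 603 to 965 in ATlo and 577 to 699 in young. Its DESeq2 call (log2 fold change over ATlo -1.05, SE 0.35, adjusted p = 0.0343, the authors' deposited table) was lost in edgeR (adjusted p = 0.177) and without AThi O11 (0.126), AThi O12 (0.0750), ATlo O11 (0.104) or ATlo O12 (0.224). Xrcc1, a scaffold of single-strand break repair, had 262 to 400 normalized counts in AThi, 437 to 653 in ATlo and 343 to 606 in young and did not pass (adjusted p = 0.266, the authors' deposited table). Trp53bp1, which encodes 53BP1, a protein that restrains resection, had 3176 to 4419 normalized counts in AThi, 3229 to 4035 in ATlo and 2951 to 4270 in young. Its log2 fold change over ATlo was 0.03, with a 95% interval of -0.34 to 0.40 in the authors' deposited table.

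Levels differed widely between the genes once divided by exon length. Rad50, Msh6 and Parp1 were the most abundant in every group, at 1265, 1063 and 812 normalized counts per kilobase in AThi, 1743, 1702 and 1218 in ATlo and 1373, 1567 and 997 in young. In AThi the lowest were Fanca (21.5 normalized counts per kilobase), Aunip (27.2) and Rad51c (29.2). Aunip was at 296 per kilobase in ATlo and 156 in young. These lengths come from all annotated exons of a gene and not from the transcripts these cells use, so the order is approximate.

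AThi HSCs were also lower than young HSCs for part of the set. By the authors' deposited Wald test 11 of 41 genes fell in AThi against young, over a background of 1.91% called lower, and 1, Rad51d, rose, over a background of 3.13%. The median log2 fold change of the 41 was -0.63, beside 0.00 over all genes tested. The 11 were Brca1, Bard1, Brca2, Rad54l, Exo1, Aunip, Blm, Brip1, Chek1, Msh6 and Hells. The edgeR test called 4 lower, Exo1, Brip1, Chek1 and Hells, and 0 higher, against backgrounds of 0.362% and 0.844%. At an unadjusted p below 0.05 edgeR had 15 lower and 1 higher, over backgrounds of 5.21% and 6.38%. Those 4 kept their call in each of the 18 alternatives tried for this comparison, with edgeR itself and the DESeq2 refit among the 18. Without the 3 libraries tagged O12 or D12, DESeq2 called 7 lower and 0 higher, over backgrounds of 0.937% and 2.13%.

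Of these 4, Chek1 had the largest decrease, with a log2 fold change over young of -1.95 (SE 0.26, adjusted p = 2.64e-11, the authors' deposited table) and an edgeR adjusted p of 0.00709. Hells had a log2 fold change over young of -1.54 (SE 0.22, adjusted p = 6.97e-10, the authors' deposited table), Exo1 of -1.44 (SE 0.23, adjusted p = 5.79e-08) and Brip1 of -1.37 (SE 0.18, adjusted p = 1.92e-11). Aunip again had the largest fold, at -2.50 (SE 0.57, adjusted p = 0.000596, the authors' deposited table), with an edgeR adjusted p of 0.0907. Rad51d had a log2 fold change over young of 0.63 (SE 0.20, adjusted p = 0.0363, the authors' deposited table) and an edgeR adjusted p of 0.193, and lost its DESeq2 call in 7 of the 8 fits that left out 1 library.

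With 2 young libraries, single libraries weighed on this comparison. The young libraries differed for Bard1, at 664 in D11 and 1548 in D12, and without D12 its log2 fold change over young was -0.65 with an adjusted p of 0.344 by DESeq2, in place of -1.38. Without young D12, 7 of 41 genes were called lower by DESeq2, and Brca1 (adjusted p = 0.0705), Brca2 (0.319) and Blm (0.303) also lost their call. Over all genes tested, 147 of 18726 were called lower there, in place of 365 of 19064 with all libraries. Without young D11, 8 genes were called lower, and Brca2 (0.0848), Rad54l (0.220), Aunip (0.0544) and Msh6 (0.280) lost theirs. Over all genes tested, 200 of 18336 were called lower in that fit. Brca2 further lost its call without AThi O11 (0.111) or AThi O12 (0.0759).

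ATlo HSCs were not called different from young HSCs for any of the 41 genes. Over so few genes, a count of 0 is not told from the backgrounds given here. The authors' deposited table held 0 lower and 0 higher, over backgrounds of 1.98% and 2.37%, and 2 lower and 5 higher at an unadjusted p below 0.05, over backgrounds of 7.42% and 7.59%. The edgeR test also called 0 in each direction, over backgrounds of 0.186% and 0.467%, with 1 lower and 4 higher at an unadjusted p below 0.05, over backgrounds of 6.12% and 5.97%. Limma called 0. Of all 19709 genes tested, limma called 48 lower and 142 higher with a pseudocount of 1, and 61 and 141 with 10. With so few calls over all genes, the limma count of 0 is no result about the set. In the authors' deposited table the median log2 fold change of the 41 was 0.13, beside 0.01 over all genes tested. For Chek1 the log2 fold change of ATlo over young was -0.02 (95% interval -0.53 to 0.49) in the authors' deposited table, for Hells 0.08 (95% interval -0.36 to 0.51) and for Exo1 0.29 (95% interval -0.16 to 0.73), none of which is told from 0 by these data.

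In this comparison 2 genes were called when 1 library was left out. Brca2 was higher in ATlo than in young without AThi O10 (log2 fold change 0.52, adjusted p = 0.0362 by DESeq2), a library of neither group compared. Fancm was lower in ATlo than in young without ATlo O12 (log2 fold change -1.18, adjusted p = 0.00119 by DESeq2). In all libraries Fancm stood at 520, 570 and 1179 normalized counts in ATlo, against 1261 and 1212 in young, so ATlo O12 alone lay near the young values. The 2 comparisons with young share the young libraries and are given side by side only.

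**Figure D4:**
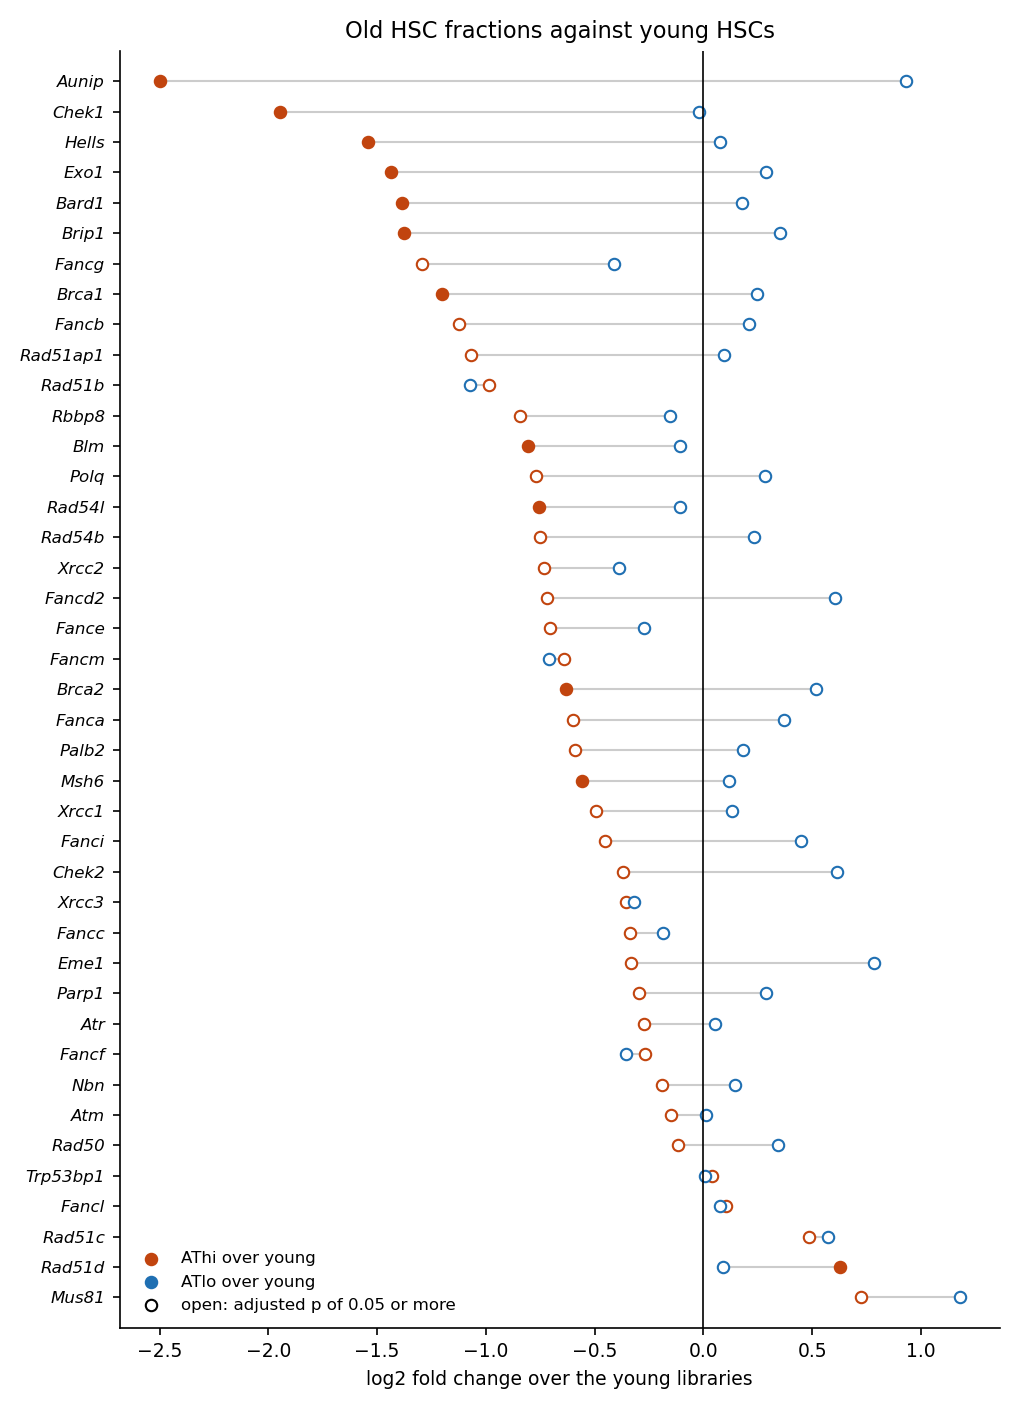
Log2 fold change of each gene in AThi over young (orange) and in ATlo over young (blue) in the authors' deposited tables, ordered by the AThi value and joined by a grey line. Filled points had an adjusted p below 0.05: 12 AThi points are filled, 11 left of 0 and that of Rad51d right of 0, and no ATlo point is filled.

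The wider pathways moved in the same direction in AThi against ATlo. A list of 111 further genes of recombination, crosslink repair, checkpoint signalling, end joining and mismatch and base excision repair had 31 genes lower and 0 higher in the authors' deposited table, with a median log2 fold change of -0.36, beside 0.02 over all genes tested. That is 27.9% of the list, over the background of 4.43%, and edgeR called 12 lower and 0 higher, over its backgrounds of 1.11% and 0.301%. The shares differed between classes. In recombination 14 of 36 fell, in checkpoint signalling 8 of 24, in mismatch and base excision repair 5 of 19, in crosslink repair 3 of 17 and in end joining 1 of 15, and whether these shares differ was not tested.

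Fignl1, an ATPase of homologous recombination, had 635, 517.5 and 626 normalized counts in AThi, against 1428, 1635 and 2069 in ATlo and 1206 and 1426 in young (log2 fold change over ATlo -1.53, adjusted p = 1.53e-11, the authors' deposited table). Rfwd3, a ubiquitin ligase that acts on RPA, fell by 1.05 on the log2 scale (adjusted p = 9.64e-08, the authors' deposited table), and Rpa2, a subunit of the RPA complex that coats single-stranded DNA, by 0.80 (adjusted p = 5.41e-05). For Fignl1, Rfwd3 and Rpa2 the edgeR adjusted p was 0.00794, 0.0184 and 0.0408. With the pair as a replicate block in edgeR the call of Rpa2 was lost (adjusted p = 0.0683).

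In crosslink repair the called genes were Rad18, Usp1 and Dclre1a. Rad18, a ubiquitin ligase of damage bypass, had 1850, 1752 and 1217 normalized counts in AThi, against 3262, 4138 and 4361 in ATlo and 2449 and 2106 in young. It stood between the fractions in young, with a log2 fold change over ATlo of -1.29 (SE 0.20, adjusted p = 1.03e-08, the authors' deposited table). Usp1, which removes ubiquitin from FANCD2, fell by 0.84 on the log2 scale (adjusted p = 9.00e-06, the authors' deposited table, edgeR adjusted p = 0.0306), and its edgeR call was lost with the pair as a replicate block (0.0686). Dclre1a, a crosslink repair nuclease, fell by 0.70 (adjusted p = 0.0451, the authors' deposited table), and lost its call in edgeR (0.175), with the pair as a replicate block in DESeq2 (0.0744) and in each of the 8 fits that left out 1 library (up to 0.236).

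Of the 24 checkpoint signalling genes, the 3 with the lowest adjusted p were Clspn, Tipin and Topbp1. Clspn, the adaptor that presents CHK1 to ATR, had 749, 989 and 675 normalized counts in AThi, against 2071, 3367 and 2446 in ATlo and 1596 and 1560 in young. AThi was below every other library and ATlo above (log2 fold change over ATlo -1.71, SE 0.22, adjusted p = 9.41e-12, the authors' deposited table, edgeR adjusted p = 0.00922). Tipin, a fork protection protein, fell by 1.21 on the log2 scale (adjusted p = 3.55e-12, the authors' deposited table) and Topbp1, the activator of ATR, by 0.91 (adjusted p = 3.03e-09), with edgeR adjusted p-values of 0.00794 and 0.0110.

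From the p53 arm of the checkpoint, Trp53 and Cdkn1a are given, and neither was called between the old fractions in the authors' deposited table. Trp53, which encodes p53, had 2687, 4094 and 3418 normalized counts in AThi, against 3460, 5275 and 4394 in ATlo and 3576 and 5300 in young (log2 fold change over ATlo -0.36, adjusted p = 0.370, the authors' deposited table). With the pair as a replicate block in DESeq2 Trp53 was called lower (adjusted p = 0.0278). Cdkn1a, which encodes the p21 inhibitor that p53 induces, had 319, 375.5 and 341 normalized counts in AThi, 607, 379.5 and 323 in ATlo, and 67.5 and 63.4 in young. Both old fractions were above young in every library, with a log2 fold change over young of 2.40 (SE 0.38, adjusted p = 4.51e-08) in AThi and 2.74 (SE 0.38, adjusted p = 1.88e-10) in ATlo in the authors' deposited tables. The edgeR adjusted p was 0.0172 for AThi and 0.0160 for ATlo over young, and the gene did not pass between the old fractions (adjusted p = 0.646, the authors' deposited table).

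Xrcc5, which encodes the Ku80 subunit of the end-binding Ku complex, was the only end joining gene called lower, at 1433, 1816 and 1141 normalized counts in AThi, against 2982, 2872 and 2458 in ATlo and 2908 and 2395 in young (log2 fold change over ATlo -0.92, SE 0.20, adjusted p = 0.000149, the authors' deposited table, edgeR adjusted p = 0.0548). With the pair as a replicate block edgeR also called Xrcc5 lower (adjusted p = 0.0423). Prkdc, the kinase that Ku recruits, and Rif1, a partner of 53BP1, did not pass (adjusted p = 0.0945 and 0.315 in the authors' deposited table), although Rif1 was called lower with the pair as a replicate block in DESeq2 (adjusted p = 0.00503) and without AThi O12 (0.0274). Ung, the glycosylase that removes uracil from DNA, had 228, 290 and 356 normalized counts in AThi, against 1546, 1439 and 1328 in ATlo and 1273 and 930 in young. Its AThi mean was 4.94-fold below its ATlo mean (log2 fold change -2.30, SE 0.23, adjusted p = 1.80e-20, the authors' deposited table, edgeR adjusted p = 0.00535). Lig1, the ligase that seals replicated DNA, fell by 1.40 on the log2 scale and Neil3, a glycosylase that also opens crosslinks, by 1.58 (adjusted p = 3.24e-08 and 7.26e-05 in the authors' deposited table, edgeR adjusted p = 0.0211 and 0.0560).

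**Figure D5:**
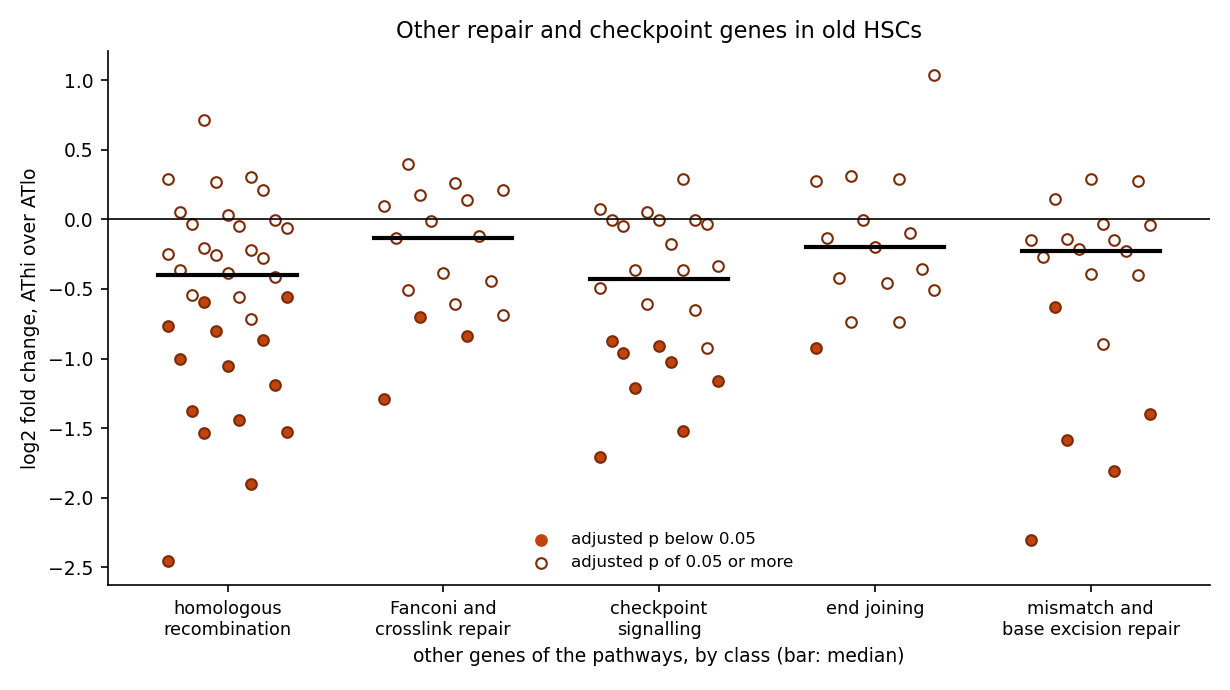
Log2 fold change in AThi over ATlo in the authors' deposited table for the 111 further genes, each a point, by class, with the class median as a bar. Filled points had an adjusted p below 0.05, all 31 of them below 0, and they are most frequent in the recombination class (14 of 36) and least in end joining (1 of 15).

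Against young, 16 of the 111 further genes fell in AThi and 1, Cdkn1a, rose in the authors' deposited table, over backgrounds of 1.91% and 3.13%. The edgeR test called 5 lower and 1 higher there, over backgrounds of 0.362% and 0.844%. In ATlo against young 1 of 111 fell and 2 rose in the authors' deposited table, shares below the backgrounds of 1.98% and 2.37%, so these counts are no result about the list. The edgeR test called 0 lower and 1 higher, over backgrounds of 0.186% and 0.467%. The 1 lower was Dclre1c, which encodes the end joining nuclease Artemis (log2 fold change -0.64, adjusted p = 0.0333, the authors' deposited table), and the 2 higher were Cdkn1a and Rad18 (log2 fold change 0.78, adjusted p = 0.0135, the authors' deposited table). Dclre1c lost this call in each of the 5 fits that left out an ATlo or a young library (adjusted p up to 0.331). Rad18 lost it without ATlo O11 (0.0818), ATlo O12 (0.0831), young D11 (0.0758) or young D12 (0.225).

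Markers of dividing cells moved with these genes. Of 27 proliferation markers, 24 were lower and 0 higher in AThi against ATlo in the authors' deposited table, over backgrounds of 4.43% and 3.47%. Their median log2 fold change was -1.31, and edgeR called 21 lower, over a background of 1.11%. Their summed normalized counts were 71448 to 89735 in AThi, 170341 to 197069 in ATlo and 121005 to 145134 in young. None of the 27 was at 0 in any library. Against young, 20 of the markers were lower in AThi (edgeR 8 lower), over backgrounds of 1.91% and 0.362%. In ATlo 8 were higher than in young (edgeR 1 higher), over backgrounds of 2.37% and 0.467%. The part of proliferation in the differences of the repair and checkpoint genes was not tested.

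The authors' deposited table of upstream regulators, made from the AThi against ATlo comparison, listed 7 of the 41 genes among its 726 regulators. Since it was computed from the same comparison, it is not independent of the results above. In that table Chek1 had an activation score of -1.94 (p of overlap 1.16e-07, from 7 target genes), Atm of -1.76 (0.00375, from 6) and Brca1 of -0.62 (7.63e-05, from 13), where a negative score is usually read as lower predicted activity. Chek2, Xrcc2, Bard1 and Hells were listed in the authors' deposited table without a score, and no activation state was given for any of the 7.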

How the data were processed

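RNA of sorted HSCs was sequenced in bulk for 3 AThi, 3 ATlo and 2 young libraries. The submitters' processing notes name STAR, featureCounts, DESeq2, FastQC and MultiQC, and build GRCm38. Versions, annotation and strandedness were not given in the sources used. The authors deposited normalized counts per gene (a signal), with log2 fold changes, standard errors, Wald scores and p-values for each of 3 comparisons, per the file headers. The authors also deposited a table of upstream regulators that holds, per the file headers, a log2 ratio, a score of activation and an overlap p-value.

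In every library 100% of the normalized counts were whole reads, within 0.01 read, divided by 1 factor per library. A DESeq2 refit (version 1.42.0, R 4.3.3) on the recovered reads, with all 8 libraries in 1 fit, gave the deposited call for each of 19909 genes in all 3 comparisons. The authors' deposited Wald test, with Benjamini-Hochberg adjustment over all genes and a threshold of 0.05, is the main test. The edgeR 4.0.16 quasi-likelihood test on the recovered reads stands beside it, and limma 3.58.1 was an alternative. The scripts were tested on simulated data. Intervals at 95% are the fold change with its standard error under a normal distribution. Normalized counts per kilobase use the merged exons of GENCODE M21. The recovered reads totalled 33960216 to 61341946 per library, of which 27.1% to 36.1% were ribosomal RNA.

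The labels say that the AThi and ATlo replicates are paired, and the tags in the file headers were taken to mark the pairs. Deviations from the group means went together within a tag (Pearson r of 0.21, 0.16 and 0.37 across genes, against -0.23 to 0.03 for other tags). Within a group these deviations sum to 0, so the values for other tags partly follow from those within a tag. The pairing by tag is therefore assumed and was not tested. A fit with the pair as a replicate block is given where it changed a call. The labels do not say on which day each library was sorted, so no values within sort days are given. Nothing says whether a library is 1 mouse or a pool, so p-values measure the spread between these libraries.

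The 41 genes, their roles, the 111 further genes and the marker lists were chosen with earlier results of these data known. All 41 genes are named. Values in every library are given for up to 3 genes per role with the lowest adjusted p in AThi against ATlo, for those called higher there or called against young, and for the 3 with a base mean of 100 or more and the highest adjusted p. Further genes are named for the 3 lowest adjusted p-values per class, beside Trp53 and Cdkn1a. A further gene is not reported here. Palb2, Rad54b, Rbbp8 and the other genes whose call changes with a setting are named with that value. Dclre1c and Rad18 against young are named after their values were seen, since the counts there were small.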

Additional observations from a re-analysis of the deposited data

How the results depend on the processing

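Of the 41 genes, 19 were called lower in AThi against ATlo by DESeq2, 9 by edgeR, with or without a filter on low counts, 9 by limma with a pseudocount of 1 or 10, and 9 by edgeR with the pair as a replicate block. The DESeq2 fit with the replicate block called 21, which adds Rbbp8 and Fancb. DESeq2 called 15 to 19 with 1 library left out and 11 without the 3 libraries tagged 12, a setting chosen after seeing the data. The 1 gene called higher, Rad51d, became 0 in edgeR, limma, both fits with the replicate block and the fits without both libraries tagged O12 or the 3 tagged 12, and 0 to 1 with 1 library left out. Against young, 11 genes lower in AThi became 4 in edgeR with or without the filter, 5 in limma with either pseudocount, 7 without the 3 libraries tagged 12 and 7 to 13 with 1 library left out. The 1 higher there became 0 in edgeR, limma and the fits without both O12 libraries or the 3 tagged 12, and 0 to 1 with 1 library left out. In ATlo against young the 0 lower became 1 without both O12 libraries and 0 to 1 with 1 library left out, as did the 0 higher (0 to 1). Of the 111 further genes, 31 lower became 12 in edgeR with or without the filter, 16 and 17 in limma with a pseudocount of 1 and 10, 12 in edgeR with the replicate block and 21 to 33 with 1 library left out. Over all genes, AThi against ATlo had 793 lower and 621 higher in DESeq2, and 986 and 961 with the replicate block. It had 220 and 60 in edgeR, and 223 and 80 in edgeR with the block. In limma it had 278 and 98 with a pseudocount of 1, and 303 and 128 with 10. With 1 library left out, DESeq2 had 486 to 855 lower and 351 to 706 higher. AThi against young had 365 lower in DESeq2, 72 in edgeR, 77 and 89 in limma, and 147 to 505 with 1 library left out. Changes in the counts of the set were not separated from these changes over all genes. The cause of these differences was not tested. No setting moved the median of all genes by more than 0.03 on the log2 scale. Under upper-quartile scaling, also chosen after seeing the data, 29 genes were lower in AThi in all 3 pairs, as without it, and 23 had AThi and ATlo values that did not overlap (22 with AThi below and 1 above), in place of 24 (23 below and 1 above).

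Signs changed only for genes that were not called. Rad51b (log2 fold change 0.09 in the deposited table) was -0.056 and -0.046 in limma with a pseudocount of 1 and 10, -0.047 and -0.062 in DESeq2 and edgeR with the replicate block, -0.25 without both O12 libraries, -0.25 without the 3 tagged 12, and -0.41 to 0.42 with 1 library left out. Fancf (0.08) was -0.024 and -0.021 in limma with a pseudocount of 1 and 10, -0.021 and -0.035 in DESeq2 and edgeR with the replicate block, and -0.38 to 0.36 with 1 library left out. Trp53bp1 (0.03) was -0.12 without both O12 libraries, -0.12 without the 3 tagged 12, and -0.11 to 0.13 with 1 library left out. With 1 library left out, Rad51c ranged from -0.51 to 0.30, Xrcc3 from -0.19 to 0.12, Fancc from -0.33 to 0.24, Fancl from -0.075 to 0.099, Fancm from -0.14 to 0.54 and Atm from -0.30 to 0.012. AThi O10 and AThi O11 were the shallowest libraries, and the lowest member, Aunip, rests on 7 reads in AThi O10, so its fold is the least precise.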
